A study of Mus musculus with 12 samples.

Results

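Leukocytes enter a lymph node in steps that depend on a small set of adhesion molecules, and 7 of the genes that encode the leukocyte's side of this contact are described here: Selplg, Itgal, Itgb2, Itga4, Itgb1, Itgb7 and Cd44. They were taken by symbol from the 32285 gene rows of the count matrices, each symbol matching 1 row, and were read in leukocytes from lymph nodes of mice. Of the 89054 cells kept in 12 libraries, 47198 fell into named leukocyte classes. The rule that chose the 7 genes used their names and no measured value, though earlier results of these data were known when they were chosen.

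The study deleted the autophagy gene Atg12 in endothelial cells and followed lymph nodes after skin inflammation. All mice were C57BL/6, 7 to 10 weeks old, and carried ATG12 fl/fl with the CDH5 CreER transgene recorded as negative (Cre-negative) or positive (Cre-positive); the Cdh5 promoter drives a tamoxifen-dependent Cre in endothelium, so the leukocytes examined here are not the cells in which it is meant to act. All mice, the Cre-negative ones included, received tamoxifen 5 times. The abdomen was painted with 4% oxazolone, a contact sensitizer, with lymph nodes collected 3 or 7 days later, or it was painted with the acetone and olive oil vehicle alone. Each of the 6 combinations of treatment and label gave 1 CD45 library, from the fraction retained on CD45 microbeads, and 1 CD31 library, from the CD45-depleted fraction sorted for endothelial cells. The number of mice behind a library is not in the labels. Every combination is therefore 1 library per fraction, and the tests below take the other label or the other treatments as the replicates, with 2 residual degrees of freedom for treatment and label and 5 for the sorted fraction. Different labels mean different mice, and the treatments were alternatives, so the 6 combinations are of different mice. Whether the CD45 and CD31 libraries of a combination share mice is not in the labels. The p-values measure the spread between these libraries only, in which differences between mice and technical differences cannot be told apart.

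Rolling, arrest and crossing of the vessel wall use these molecules in turn. Selplg encodes the mucin PSGL-1, which binds P-selectin and E-selectin once glycosyltransferases have decorated it. Itgal and Itgb2 encode the subunits of the integrin LFA-1, whose ligands are the ICAM proteins. Itga4 encodes the subunit shared by VLA-4, where it pairs with the product of Itgb1 and binds VCAM-1, and by the integrin of gut homing, where it pairs with the product of Itgb7 and binds MAdCAM-1. Cd44 encodes the hyaluronan receptor, a protein carried at high density by activated and memory lymphocytes.

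In the GRCm38 assembly, all 7 are protein-coding genes. Selplg lies on the minus strand of chromosome 5 (113818536-113832644) and Itgal on the plus strand of chromosome 7 (127296260-127335138). Itgb2 lies on the plus strand of chromosome 10 (77530252-77565708), Itga4 on the plus strand of chromosome 2 (79255426-79333123) and Itgb1 on the plus strand of chromosome 8 (128685654-128733200). Itgb7 lies on the minus strand of chromosome 15 (102215995-102231944) and Cd44 on the minus strand of chromosome 2 (102811141-102901665). The counts are of 3' tags summed over each gene, so splice variants, of which Cd44 is known to have several, are not separated.

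Libraries held 36724887 to 76186801 unique molecular identifiers (UMIs), and 5984 to 11636 barcodes each passed the filters on cells. A level below is a gene's UMIs in CPM (counts per 1000000 UMIs), summed over the cells of a class in 1 library. Classes were named from marker genes as T-like, B-like, NK-like and so on, and are written T, B and NK cells for short; the class called dendritic joins migratory and conventional type 1 cells. Pairs of libraries shared at most 31 cell barcodes, and 1079 of 94276 distinct barcodes occurred in 2 or more libraries. Within the CD45 fraction, the vehicle Cre-negative and day 7 Cre-positive libraries stood apart: germinal centre B cells were 3.35% and 4.04% of their leukocytes against 0.17% to 0.56% in the other 4, and Tbc1d4-led CD4 T cells were 13.4% and 14.4% of their T cells against 2.66% to 6.86%. Cycling T cells were 14.1% and 13.7% of T cells in the day 3 libraries against 1.60% to 3.43% in the other 4. T cells of the vehicle Cre-positive libraries held no Xist UMI in either fraction, and those of the other 10 libraries held transcripts of both Xist and the Y-linked Ddx3y, so that sex also differed between groups. Libraries with both are read as pools of mice of both sexes.

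Across leukocyte classes the 7 genes followed different orders. Levels were set side by side only within a gene, over the 6 CD45 libraries (3 for plasma cells and 5 for macrophages), and with no test, because the classes share libraries. The order covers 10 classes and leaves out neutrophils, which had at least 10 cells in only 2 CD45 libraries; these read 407 and 957 CPM of Selplg and 244 and 388 of Itgb2, with means of 682 and 316 above every class in the order. Among the 10 classes Selplg was highest in plasmacytoid dendritic cells, at 655 ± 65.2 CPM (SD, n = 6), and next in NK cells at 480 ± 54.2; their ranges did not overlap. Dendritic cells (363 ± 49.6), monocytes (252 ± 57.6) and T cells (224 ± 30.2) followed, each overlapping its neighbour. B cells had 35.0 ± 4.87 CPM and germinal centre B cells 12.0 ± 5.24, both apart from their neighbours in the order. In 4 of the 6 libraries germinal centre B cells were 0.17% to 0.56% of 4375 to 6009 leukocytes, so those values rest on few cells. In each of the 6 libraries the T cell level of Selplg exceeded the B cell level, by 5.57 to 7.17 times.

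Both LFA-1 subunits had monocytes at the top of the 10 classes and did not share the rest of their order. Itgal read 378 ± 113 CPM in monocytes, 321 ± 112 in macrophages (n = 5) and 246 ± 51.7 in NK cells, which overlapped one another. T cells followed plasmacytoid dendritic cells at 103 ± 13.9, and B cells (35.0 ± 3.69), germinal centre B cells (33.2 ± 5.99) and plasma cells (36.4, with 21.6 to 46.3 over 3 libraries) could not be told from one another by their ranges. Itgb2, which also pairs with the alpha subunits of myeloid integrins, read 302 ± 42.9 in monocytes, 224 ± 36.1 in NK cells and 80.3 ± 9.79 in T cells. B cells had the lowest Itgb2 mean at 27.5 ± 2.19. A myeloid cluster led by Il1b and H2-Aa is given no cell type. None of the type 2 dendritic markers ranked among its 10 leading genes over the median cluster of all cells. Over the median cluster of myeloid and dendritic cells, its 10 leading genes included Cd209a, Cd209d and Mgl2. A type 2 dendritic identity was therefore not settled. This cluster had the lowest Itgal mean, 16.2 ± 6.61, but an Itgb2 mean of 136 ± 38.0.

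The subunits of the 2 alpha-4 integrins were distributed unequally. Itga4 was highest in NK cells (492 ± 79.7 CPM) and monocytes (491 ± 128), whose ranges overlapped, and lower in dendritic cells (269 ± 49.8). B cells, at 156 ± 25.3, had more Itga4 than T cells taken as a whole class, at 100 ± 16.3, and the 6 B cell values did not overlap the 6 T cell values. Without cycling T cells the T cell range was 104 to 138, which overlapped the B cell range of 121 to 183. The CD4 and CD8 T subclasses described below averaged 136 and 141 and overlapped B cells too. Itgb1 ran the other way between these lymphocytes, with 148 ± 34.9 in T cells and 25.6 ± 3.04 in B cells, the lowest mean of the 10 classes. CD4 T cells had 32.0 ± 6.01, with a range that overlapped that of B cells, and CD8 T cells 40.7 ± 5.47, above the B cell range. NK cells had the highest Itgb1, 597 ± 146, apart from dendritic cells at 331 ± 27.4. Itgb7 was the 1 gene of the 7 with its highest mean in T cells, 156 ± 5.94, which did not overlap NK cells at 124 ± 14.5; B cells had 53.7 ± 7.08 and dendritic cells 43.4 ± 14.5. UMIs of Itgb7 per UMI of Itgb1 thus stood at 2.14 ± 0.566 in B cells, 1.12 ± 0.319 in T cells and 0.215 ± 0.0404 in NK cells. The T cell ratio mixes subclasses, with 4.87 ± 0.897 in CD4 and 3.76 ± 0.225 in CD8 T cells, above the B cell mean. Free RNA of the CD45 libraries held 88.8 to 194 CPM of Itgb1 and 62.5 to 104 of Itgb7, above the B cell means of both. The same held for Selplg (80.4 to 115), Itgb2 (36.6 to 59.7) and Cd44 (55.4 to 102). For Itgal (33.8 to 62.4) the B cell mean lay inside the range, and for Itga4 (33.3 to 83.6) above it. The part of free RNA in the levels of B and germinal centre B cells, in the Selplg folds of T over B cells and in the ratio was not tested.

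Cd44 was highest in monocytes, with 572 ± 233 CPM, and in plasmacytoid dendritic cells, with 454 ± 96.5, and these overlapped. Dendritic cells had 284 ± 42.0, NK cells 132 ± 36.3, T cells 72.0 ± 18.5 and B cells 34.7 ± 4.95. The monocyte values of all 7 genes rest on 12 to 23 cells per library and those of NK cells on 46 to 82. Germinal centre B values of all 7 genes also rest on few cells in most CD45 libraries.

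**Figure D1:**
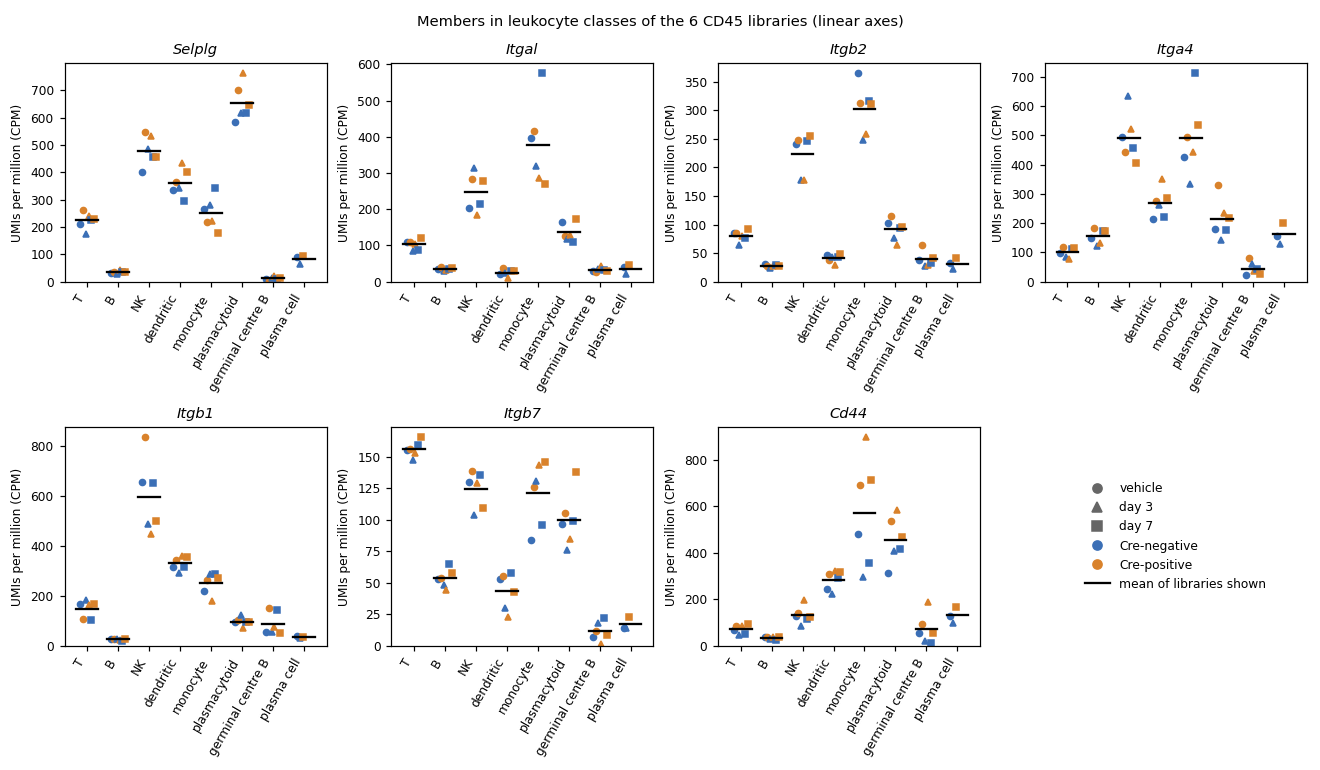
Levels of the 7 genes (CPM, linear axes from 0) in 8 leukocyte classes, 1 point per CD45 library with at least 10 cells; colour gives the label, shape the treatment and the black bar the mean of the points. Itgb7 peaks in T cells (mean 156), Itgb1 in NK cells (mean 597) and Selplg in plasmacytoid dendritic cells (mean 655), and B cells are near the bottom for every gene but Itga4 and Itgb7.

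The share of single cells with a UMI of a member depended on depth. Among 14276 T cells with a median of 5340 UMIs, 64.2% had a Selplg UMI (exact 95% interval 63.4% to 65.0%), 53.5% an Itgb7 UMI and 23.0% a Cd44 UMI. With each cell thinned to 1000 UMIs the same shares were 20.2%, 14.9% and 5.75%. Among 15753 B cells with a median of 3253 UMIs, 35.5% had an Itga4 UMI and 7.69% an Itgb1 UMI, or 12.97% and 2.04% after thinning. The background for 5 of the genes was read in the 8594 stromal cells of the same CD45 libraries, at a median of 8289 UMIs, where 2.25% had a Selplg UMI and 1.15% an Itgal, 1.22% an Itgb2, 3.36% an Itga4 and 2.56% an Itgb7 UMI. Blood endothelial-like cells of the CD31 libraries (22536, at a median of 3975 UMIs) had lower shares, 0.763% for Selplg and 0.231% to 0.564% for the other 4, and free RNA of those libraries held 36.4 to 56.9 CPM of Selplg against 80.4 to 115 in the CD45 libraries. Itgb1 was present in 78.0% and Cd44 in 5.45% of those endothelial-like cells, and in 86.1% and 46.5% of the stromal cells, so for these genes no class served as a background. Intervals on shares and counts cover counting error only.

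Likeness across the 10 classes was measured as Pearson's r of log2(CPM + 10) over class means, among 6362 genes; the points share libraries and depth and the values are descriptions. The closest pairs among the 7 were Itgal with Itgb2 (r = 0.77), Itgb2 with Itgb1 (0.74) and Itga4 with Itgb7 (0.71), while Itga4 with Itgb1 gave 0.36. Outside the 7, the 3 genes most like Selplg were Cd47 (0.91), Dusp5 (0.90) and Ahnak (0.90). For Itgal they were Rbm7 (0.93), Tbc1d2b (0.90) and Rap1gap2 (0.89), and for Itgb2 Myo1f (0.95), Chmp4b (0.94) and Hip1 (0.94). Itga4 had Ifi35 (0.87), Btg2 (0.87) and Pbxip1 (0.84). Itgb1 had S100a13 (0.93), Id2 (0.90) and Gsap (0.90). Itgb7 was followed most closely by Cdkn1b, an inhibitor of cyclin-dependent kinases (0.95), by Fxyd5 (0.92) and by Pstpip1 (0.90), and Cd44 by Stk3 (0.91), Cers6 (0.90) and Npc2 (0.89).

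The promoters of Itga4 and of the subunits it pairs with are shown because the partners compete for 1 alpha subunit and differ in the classes that express them. The bases are the 250 upstream of each RefSeq start in GRCm38.p6, printed 5′ to 3′ on the gene's strand, from chr2:79255176-79255425 (plus) for Itga4, chr15:102231936-102232185 (minus) for Itgb7 and chr8:128685404-128685653 (plus) for Itgb1. Capitals mark matches, on either strand, to CACCC (read as GGGTG on the opposite strand), to the RUNX motif TGTGGT (read as ACCACA) and to the GC box GGGCGG.
Itga4: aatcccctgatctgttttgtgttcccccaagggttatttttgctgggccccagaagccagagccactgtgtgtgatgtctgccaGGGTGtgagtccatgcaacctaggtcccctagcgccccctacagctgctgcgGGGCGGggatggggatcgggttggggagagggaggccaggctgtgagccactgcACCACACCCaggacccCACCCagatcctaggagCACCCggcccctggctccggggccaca
Itgb7: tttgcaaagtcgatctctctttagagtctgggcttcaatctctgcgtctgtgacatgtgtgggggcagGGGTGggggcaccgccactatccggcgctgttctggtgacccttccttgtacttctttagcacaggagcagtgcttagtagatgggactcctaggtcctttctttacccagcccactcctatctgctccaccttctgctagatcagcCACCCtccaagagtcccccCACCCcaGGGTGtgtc
Itgb1: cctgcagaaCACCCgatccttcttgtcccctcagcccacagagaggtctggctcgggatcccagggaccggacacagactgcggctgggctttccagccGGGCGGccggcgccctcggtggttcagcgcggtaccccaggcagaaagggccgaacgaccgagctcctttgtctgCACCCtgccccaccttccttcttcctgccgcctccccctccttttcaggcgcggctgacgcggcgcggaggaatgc
Itga4 held 4 CACCC matches, of which the one 56 bases before the start overlaps its 1 RUNX match, and 1 GC box. Itgb7 held 4 CACCC matches and neither of the other motifs, and Itgb1 held 2 CACCC matches and 1 GC box. The ETS motif GGAAGT was in none of them. CACCC occurred in 52.0% of 32851 promoter windows of the same length, TGTGGT in 14.05%, GGAAGT in 19.7% and GGGCGG in 32.7%. Itgb1 had 21 CG pairs in these bases against 6 in Itga4, 5 in Itgb7 and a median of 6 over all windows. The window of Cd44 (chr2:102901666-102901915, minus) had 5 CG pairs and no match to the 4 motifs. Of the 7 symbols, 4 matched the promoter table; Selplg, Itgal and Itgb2 did not.

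Within T cells, Itgb1 and Cd44 separated subclasses more widely than the other members did. The subclasses were clusters of T cells of both fractions, clustered without the 7 genes, and those called led by a gene are named for the gene with the largest fold over the median T cell cluster. CD4 and CD8 T cells without a further name join 3 and 5 clusters, of 84 to 2401 cells each; the smallest, of CD8 T cells, was led by the interferon-induced gene Ifit3. Gamma-delta T cells join clusters of 616 and 218 cells, the larger led by S100a4 and Il23r and the smaller by Trdc and Hdac9. S100a4-led CD4 T cells were 1.19% to 2.06% of T cells in the CD45 libraries and were not fitted alone. Itgb1 averaged 589 ± 181 CPM in S100a4-led CD4 T cells, 386 ± 76.5 in Tbc1d4-led CD4 T cells, 258 ± 21.4 in cycling cells and 248 ± 12.5 in regulatory T cells. It averaged 169 ± 31.0 in Ccl5-led CD8 T cells and 141 ± 26.7 in gamma-delta T cells, and 40.7 ± 5.47 in CD8 and 32.0 ± 6.01 in CD4 T cells, which overlapped each other and no other subclass. Cd44 had the same pair at the bottom, 22.4 ± 4.62 in CD4 and 15.6 ± 2.51 in CD8 T cells, against 101 ± 19.1 in Ccl5-led CD8 T cells and 290 ± 96.4 in gamma-delta T cells.

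The other members set the subclasses in other orders. Itga4 was lowest in cycling T cells, 29.8 ± 18.2 CPM, and read 141 ± 14.01 in CD8 and 136 ± 16.2 in CD4 T cells. Selplg was lowest in Tbc1d4-led CD4 T cells, 106 ± 32.0, the same cells that had the highest means of Itgal (205 ± 29.1) and Itgb2 (105 ± 14.03). Itgb2 differed least, with means of 69.6 to 105 over the 8 subclasses. Itgb7 was highest in gamma-delta T cells, 301 ± 52.2, and lowest in Ccl5-led CD8 T cells, 91.8 ± 6.09. UMIs of Itgb7 per UMI of Itgb1 ran from 4.87 ± 0.897 in CD4 T cells and 3.76 ± 0.225 in CD8 T cells to 0.900 ± 0.137 in regulatory T cells and 0.283 ± 0.106 in Tbc1d4-led CD4 T cells.

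**Figure D2:**
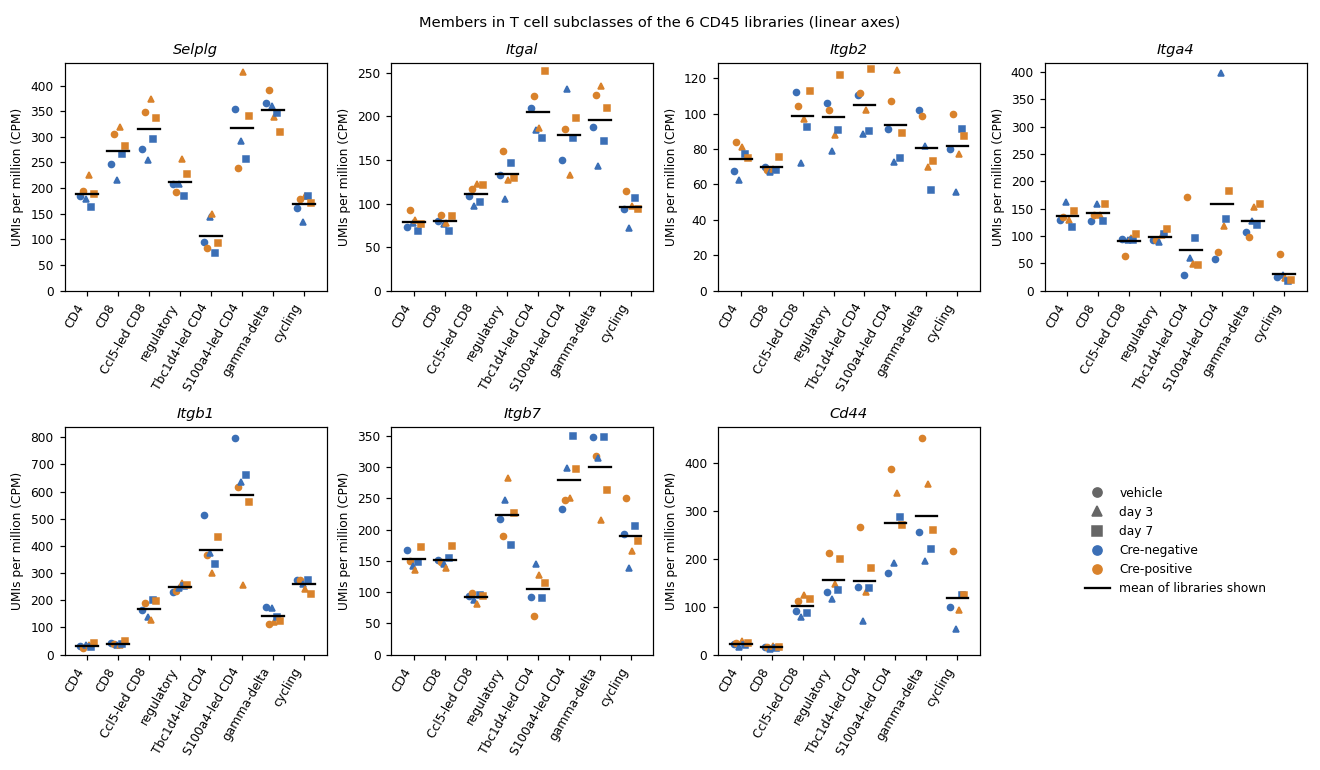
Levels of the 7 genes (CPM, linear axes from 0) in 8 T cell subclasses, 1 point per CD45 library with at least 10 cells; colour gives the label, shape the treatment and the black bar the mean. Itgb1 and Cd44 reach at most 51.0 and 28.0 CPM in CD4 and CD8 T cells and are at least 112 and 52.5 CPM in every library of the other 6 subclasses.

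The dendritic class joins a pair of subsets whose ranges did not overlap for any of the 7 genes. Migratory cells, which carry antigen in from the tissues, were low in the LFA-1 subunits and Itgb7 and high in the other 4. In them Itgal read 0 to 1.86 CPM, Itgb2 5.93 to 12.1 and Itgb7 2.54 to 5.54 over the 6 libraries. In conventional type 1 dendritic cells, known for cross-presenting antigen to CD8 T cells, the ranges were 43.2 to 87.5, 81.8 to 129 and 67.7 to 131. Of 869 migratory cells, 0.806% had an Itgal UMI (0.324% to 1.65%) and 2.65% an Itgb7 UMI (1.69% to 3.95%), at a median of 7768 UMIs. Stromal cells of the same libraries, at a median of 8289 UMIs, had 1.15% and 2.56%, so the shares of Itgal and Itgb7 in migratory cells are read as background. Thinned to 1000 UMIs, 0 of 869 migratory cells had an Itgal UMI; this allows up to 0.345% of cells with a UMI at that depth and sets no limit on cells expressing the gene. The Itgb2 share, 5.18% (3.80% to 6.87%), was above the 1.22% in stromal cells. Itga4, by contrast, read 240 to 410 CPM and Itgb1 397 to 458 in migratory cells, against 145 to 231 and 144 to 197 in type 1 cells. Selplg read 369 to 513 and Cd44 295 to 393 in migratory cells, against 190 to 285 and 120 to 237.

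**Figure D3:**
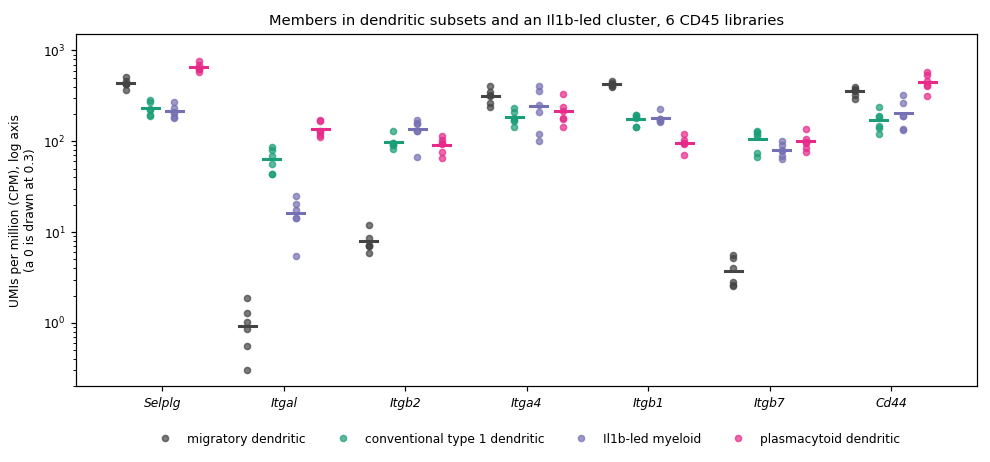
Levels of the 7 genes (CPM, log axis, with a 0 drawn at 0.3) in 3 dendritic subsets and the Il1b-led myeloid cluster, 1 point per CD45 library with at least 10 cells and a bar at the mean. Migratory cells lie at 12.1 CPM or less for Itgal, Itgb2 and Itgb7, and for each of these genes below every point of the other 3 groups.

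Day 3 of inflammation was compared with vehicle to ask whether the adhesion genes of nodal leukocytes moved with the skin response. In T cells none of the 7 passed edgeR's quasi-likelihood test at an adjusted p of 0.05, whereas 18.1% of the 13202 genes tested did. Itga4 read 96.6 CPM in the vehicle Cre-negative and 117 in the vehicle Cre-positive library, and 86.0 and 77.7 at day 3. Both day 3 values lie below both vehicle values, and the day 7 values, 111 and 115, do not. Its log2 change was -0.37 (SE 0.12, adjusted p = 0.077 by edgeR). In T cells without the cycling cluster it was 0.14, and cycling T cells, the subclass with the lowest Itga4, made up 14.1% and 13.7% of T cells at day 3. Cycling T cells of both fractions held a median of 23073 UMIs, where the median of library medians over T cells was 5571. In levels summed over T cells they therefore weigh more than their share of cells. Within cycling T cells Itga4 differed by -0.69 (SE 0.36, adjusted p = 0.40 by edgeR) and all 7 members were below 0, from -1.08 to -0.10; in Tbc1d4-led CD4 T cells Itga4 differed by -0.49 (SE 0.71, adjusted p = 0.96 by edgeR). Leaving out the vehicle Cre-negative, day 7 Cre-negative or day 7 Cre-positive library brought Itga4 past the threshold (adjusted p 0.033, 0.025 and 0.044 by edgeR), in fits where 13.8%, 23.8% and 23.3% of all genes passed. So did edgeR without the filter on low counts (adjusted p = 0.034), where 14.9% did. Its change was -0.58 without the vehicle Cre-negative, -0.19 without the vehicle Cre-positive and -0.23 without the day 3 Cre-positive library.

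Itgb1 in T cells read 169 and 182 CPM in the vehicle and day 3 Cre-negative libraries, and 106 and 162 in the Cre-positive ones. At day 7 the values were 102 and 166. The low values, 106 and 102, came from the libraries with the fewest Tbc1d4-led cells (2.66% and 2.67% of T cells) and the fewest cycling cells (1.60% and 1.86%). The day 3 log2 change was 0.34 (SE 0.26, adjusted p = 0.41 by edgeR); it was -0.24 without the cycling cluster and -0.07 without the vehicle Cre-positive library. What part the share of these subclasses has in the T cell value was not tested beyond that fit. The other 5 members had day 3 log2 changes from -0.26 (Cd44) to -0.04 (Itgb7), with adjusted p from 0.18 to 0.81. The median over the 7 was -0.20, against 0.01 over all genes tested. Over 8 T cell subclasses, Cd44 was higher at day 3 in 4 of 16 pairs, with the counting interval above 0 in 0 and below in 7. The same count was 2 for Itgb2 (0 and 3), 4 for Itgal (0 and 1) and 5 for Itgb1 (1 and 4). It was 6 for Itgb7 (3 and 4), 9 for Selplg (5 and 2) and 10 for Itga4 (6 and 2). These pairs are the same libraries read in several subclasses and are not independent.

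**Figure D4:**
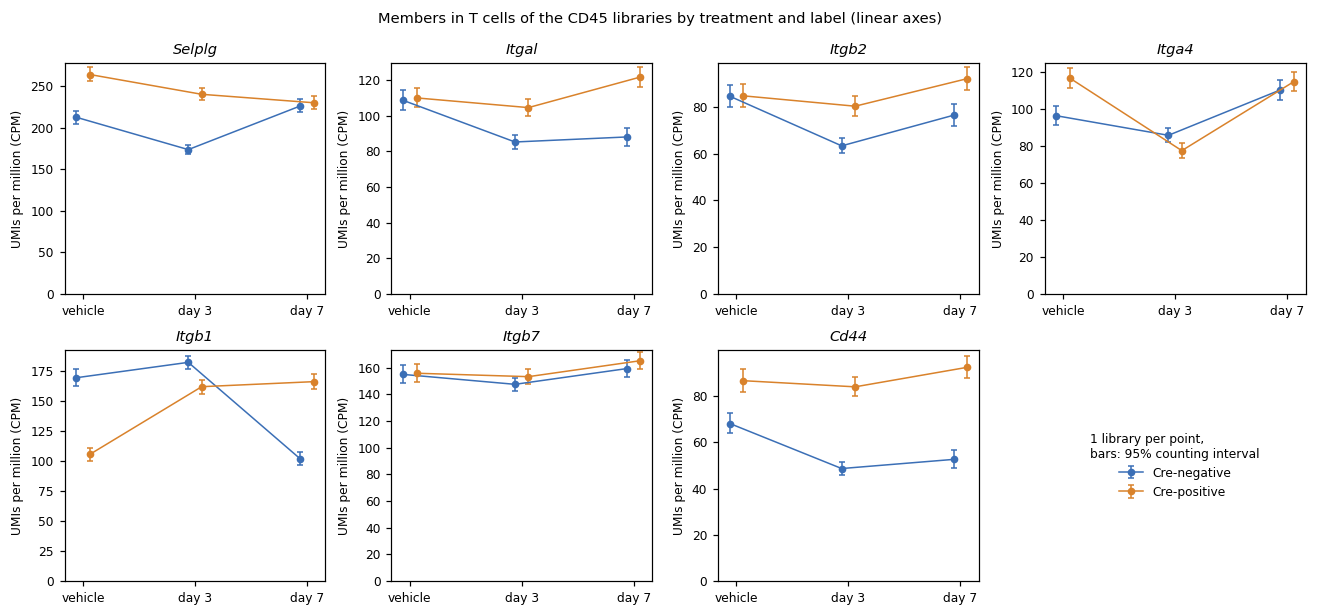
Levels of the 7 genes in T cells of the CD45 libraries (CPM, linear axes from 0) by treatment, 1 library per point with its exact 95% counting interval; colours give the label. Cre-positive points of Cd44 lie above Cre-negative points at all 3 times, Itgb1 crosses between labels, and Itgb7 stays between 147 and 165.

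Lists of genes that act with the members were counted in the same T cell fit, where 18.1% of all genes passed, 1796 higher and 590 lower, and no list was tested against that share. Among partner integrin subunits, 1 of 12 tested was higher and 2 lower: Itgam, the alpha subunit of Mac-1, changed by 1.57 on the log2 scale, Itgb8 by -1.11 and Itgae by -0.64 (adjusted p 0.028, 0.0035 and 0.0072 by edgeR). These and the other list genes outside the 6 largest list changes were named after their values were seen. Of 11 glycosylation genes for selectin ligands, 3 were higher and none lower, led by Fut7, the fucosyltransferase that completes the selectin-binding sugar, with a log2 change of 2.22 (SE 0.34, adjusted p = 0.0054 by edgeR). Galnt3, which starts O-glycans, changed by 1.58 and Gcnt1, which branches them, by 0.88. Of 16 genes of integrin activation, Vcl, Rasgrp2 and Skap2 were higher and Evl lower; of 6 restraint genes Itgb1bp1 was higher, and of 6 genes that anchor or cleave CD44, Rdx was higher. The 6 cycling genes were all higher, with Birc5 at 2.23, Tyms at 2.11, Mki67 at 1.85, Top2a at 1.78 and Stmn1 at 1.67 among the 6 largest list changes. Without the cycling cluster none of 12779 genes passed (0%, with 772 at an unadjusted p below 0.05; DESeq2 was not run on those cells), so each of these calls ended. In subclasses fitted alone no member passed at day 3 either, where 0.0298% of genes did in CD4, 0.105% in CD8, 0.0451% in Tbc1d4-led, 0.0224% in Ccl5-led and 0.225% in cycling T cells, and 0% in regulatory and gamma-delta T cells. In the same T cells the median log2 changes were -0.18 for partner subunits, 0.06 for glycosylation and -0.14 for activation, beside 0.01 over all genes.

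In B cells none of the 7 passed at day 3, nor did any of 12030 genes (0%, with 1116 at an unadjusted p below 0.05 and 37 called by DESeq2). Itga4, the alpha-4 subunit, read 149.5 and 183 CPM in vehicle, 121 and 133 at day 3 and 174 and 174 at day 7. Both day 3 values are the lowest of the 6, and the log2 change was -0.38 (SE 0.11, unadjusted p = 0.0088, adjusted p = 0.39 by edgeR). The other 6 members had day 3 changes of -0.23 to 0.07 in B cells.

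In NK cells none of the 7 passed at day 3, again with 0% of 5614 genes called (267 at an unadjusted p below 0.05 and 0 by DESeq2). Itgb1 read 659 and 836 CPM in vehicle, 488 and 448 at day 3 and 652 and 502 at day 7, so the vehicle and day 3 values did not overlap. Its log2 change was -0.69 (SE 0.22, unadjusted p = 0.0061, adjusted p = 0.89 by edgeR), and it was -0.40 without the vehicle Cre-positive library. Itgb2 read 241 and 247 in vehicle and 177 and 178 at day 3, a change of -0.47 (SE 0.22, adjusted p = 0.97 by edgeR).

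In dendritic cells none of the 7 passed at day 3, where 0.0204% of 9788 genes did. Itgb7 read 52.8 and 55.1 CPM in vehicle, 29.7 and 22.5 at day 3 and 57.6 and 42.8 at day 7. The day 3 values are the lowest, with a log2 change of -1.02 (SE 0.22, unadjusted p = 0.0013, adjusted p = 0.12 by edgeR). Migratory cells, in which Itgb7 is near 0, were 77.4% and 88.4% of the dendritic class at day 3 and 73.9% and 75.7% in vehicle. In type 1 cells alone, with 22 to 53 cells per library, Itgb7 read 115 and 128 in vehicle, 67.7 and 74.4 at day 3 and 131 and 119 at day 7. Itgal changed by -0.68 (SE 0.40, adjusted p = 0.50 by edgeR), and its sign turned to 0.05 without the vehicle Cre-positive and 0.02 without the day 3 Cre-positive library. Without the filter on low counts Itgb7 passed (adjusted p = 0.0071 by edgeR), where 2.39% of genes did. It also passed the threshold when the vehicle Cre-negative or the day 7 Cre-positive library was left out, and Itgal when the vehicle Cre-negative library was; 3.82% and 2.57% of genes passed in these fits. In migratory cells alone, where Itgal, Itgb2 and Itgb7 did not pass the filter on low counts, none of the other 4 passed at day 3 (0.302% of genes did), for the label (0.0378%) or between fractions (0.0633%).

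Monocytes, with 12 to 23 cells per library, were under the 30 cells set for a fit and were not tested. Their Cd44 read 479 and 692 CPM in vehicle, 294 and 895 at day 3 and 356 and 714 at day 7, and their Itgb2 read 365 and 313, 248 and 258, and 315 and 311. The Cd44 value was higher in the Cre-positive library at each time, and the Itgb2 values at day 3 were the lowest 2 of the 6.

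At day 7 against vehicle none of the 7 members passed in any of the 4 classes fitted, and none of the genes tested did. That was 0% in T, B, NK and dendritic cells, with 392, 470, 226 and 408 genes at an unadjusted p below 0.05 and 3, 0, 0 and 1 genes called by DESeq2. Among the subclasses, 0.0112% of genes passed in Ccl5-led CD8 T cells, none of them a member. Members' log2 changes ran from -0.10 to 0.13 in T cells, from -0.20 to 0.22 in B cells, from -0.33 to 0.09 in NK cells and from -0.09 to 0.20 in dendritic cells. In T cells the Cre-negative and Cre-positive libraries went opposite ways for Selplg, Itgal, Itgb2 and Itgb1 with counting intervals that excluded 0 in both, as listed in the closing section, and for Itga4 and Cd44 without that. The vehicle Cre-negative and day 7 Cre-positive libraries stood apart in makeup, so the additive fit averaged pairs whose makeup moved opposite ways. Germinal centre B cells went from 3.35% to 0.17% of leukocytes in the Cre-negative and from 0.39% to 4.04% in the Cre-positive pair.

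The label comparison asks whether leukocytes differ when endothelial Atg12 can be deleted. Cd44 in T cells read 68.1 CPM in the Cre-negative and 86.6 in the Cre-positive vehicle library, 48.6 and 83.9 at day 3, and 52.6 and 92.3 at day 7. All 3 Cre-positive values lie above all 3 Cre-negative values, and each pair's counting interval excluded 0. The log2 difference was 0.55 (SE 0.10, unadjusted p = 0.0011, adjusted p = 0.19 by edgeR), so Cd44 did not pass, and none of the 7 did, where 0.0227% of genes did. DESeq2, and edgeR without the filter on low counts, gave adjusted p of 0.0066 and 0.00033, and edgeR gave 0.045 without the day 7 Cre-negative library, where Itgb1 passed too. All genes passed at a share of 9.15% (of the 3291 that DESeq2 gave an adjusted p), 2.95% and 2.25% in those fits. Over 8 T cell subclasses, Cd44 was higher in the Cre-positive library in 22 of 24 pairs, and the counting interval lay above 0 in 15 and below 0 in none. The same count was 21 of 24 for Itgal (interval above 0 in 6 and below in 0), 18 for Selplg (10 and 1), 17 for Itgb2 (5 and 0), 15 for Itga4 (4 and 5), 9 for Itgb1 (3 and 7) and 9 for Itgb7 (5 and 2). The 24 pairs are 3 pairs of libraries read in 8 subclasses and are not independent. No member passed for the label in T cells without the cycling cluster (0.0391% of genes did) or in CD4 (0.378%), CD8 (0.791%), Tbc1d4-led (0.0113%), regulatory (0.0716%), Ccl5-led (0.929%), gamma-delta (0.234%) or cycling T cells (0%) alone. In gamma-delta T cells the pairs were 256 and 453, 195 and 355, and 221 and 260 CPM, and in regulatory T cells 130 and 212, 116 and 147, and 135 and 199. CD8 T cells, with the lowest Cd44, gave 16.7 and 15.4, 11.9 and 18.9, and 13.6 and 16.9.

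Other measures moved with the label as well. Median UMIs per T cell were 4939, 5091 and 4288 in the Cre-negative and 6344.5, 7554 and 5615.5 in the Cre-positive libraries, higher in each pair. Cd44 in near-empty droplets, a reading of free RNA, was 75.8, 59.5 and 55.4 CPM in Cre-negative and 78.0, 81.0 and 102 in Cre-positive libraries; with free RNA subtracted the log2 difference was 0.57 (adjusted p = 0.25 by edgeR). Sex differed too, as only the vehicle Cre-positive library lacked Xist, and without that library the difference was 0.68 (adjusted p = 0.083 by edgeR). The part of depth and of sex in the difference was not tested.

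Among the other T cell members, label differences ran from -0.16 (Itgb1) to 0.16 (Selplg), with adjusted p of 0.45 or more. In B cells none of the 7 passed, where 0.00831% of genes did, and Cd44 differed by 0.19 (SE 0.13, adjusted p = 0.52 by edgeR). In NK cells none passed, where 0.0534% of genes did, and Cd44 differed by 0.43 (SE 0.25, adjusted p = 0.68 by edgeR). In dendritic cells none passed, where 0.0511% of genes did. Itga4 was nearest there, with 214, 262 and 222 CPM in Cre-negative and 276, 351 and 286 in Cre-positive libraries, higher in each pair and by 0.35 on the log2 scale (SE 0.13, adjusted p = 0.21 by edgeR). Dendritic Cd44 was also higher in each pair, with a log2 difference of 0.30 (SE 0.15, adjusted p = 0.31 by edgeR). The migratory share of the dendritic class was higher in each pair too. It was 73.9%, 77.4% and 74.0% in Cre-negative and 75.7%, 88.4% and 78.2% in Cre-positive libraries. Migratory cells had more Itga4 (316 against 185 CPM) and Cd44 (353 against 169) than type 1 cells. In migratory cells alone the 4 members fitted differed by 0.04 to 0.22 (adjusted p of 0.63 or more by edgeR). The part of this makeup was not tested. Of the pathway lists, no partner, activation, restraint, glycosylation or CD44 anchoring gene passed for the label in any of the 4 classes. The context lists gave Dapl1 in NK cells (-5.32) and Stmn1 (-1.93) and Top2a (-1.43) in dendritic cells.

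The sorted fractions were compared because the CD31 libraries, sorted after CD45 depletion, still held T, B and dendritic cells. In T cells 1 of the 7 members passed, where 5.01% of 13769 genes did. It was Itgb1, with 203, 208 and 132 CPM in the Cre-negative CD31 libraries at vehicle, day 3 and day 7, against 169, 182 and 102 in the CD45 libraries. The Cre-positive CD31 values were 105, 229.9 and 212, against 106, 162 and 166. The CD31 value was the higher in 5 of 6 pairs, by 0.26 on the log2 scale (SE 0.07, adjusted p = 0.0498 by edgeR). The call held when the vehicle Cre-positive pair was left out and ended when any of the other 5 pairs was, with doublets kept (adjusted p = 0.051 by edgeR) and in the fit without the block (0.51). With doublets kept Selplg passed in its place (adjusted p = 0.036 by edgeR, where 6.01% of genes did), and without the day 3 Cre-positive pair Cd44 did (adjusted p = 0.020 by edgeR, 3.39% of genes). Selplg was lower in the CD31 library in 6 of 6 pairs, by -0.21 (SE 0.06, adjusted p = 0.054 by edgeR), Itga4 differed by -0.25 and Cd44 by 0.23 (both adjusted p = 0.091 by edgeR).

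T cells of the CD31 libraries had another makeup. Cycling cells were 2.29% to 27.7% of them against 1.60% to 14.1% in the CD45 libraries, and Tbc1d4-led cells 4.13% to 17.5% against 2.66% to 14.4%, higher in each of the 6 pairs for both. Of the context lists, 5 of 6 cycling genes were higher in CD31 libraries, led by Top2a (0.56), and 4 of 8 naive genes lower. Of 11 effector genes 2 were lower, the chemokine gene Ccl5 (-0.57) among them, and no gene of the other 5 pathway lists passed. No member passed in T cells without the cycling cluster, where 2.19% of genes did, or in any of 6 subclasses fitted alone, where 0.12% (Tbc1d4-led and regulatory), 0.172% (gamma-delta), 0.266% (Ccl5-led), 0.484% (CD4) and 0.591% (CD8) did. The Itgb1 difference was 0.26 without the cycling cluster (adjusted p = 0.076 by edgeR), 0.17 in CD4, 0.07 in CD8, 0.11 in regulatory and 0.05 in Tbc1d4-led CD4 T cells, and -0.06 in Ccl5-led CD8 T cells. In gamma-delta T cells it was 0.57 (SE 0.17, unadjusted p = 0.0022, adjusted p = 0.45 by edgeR), with 109 to 317 CPM in the CD31 and 112 to 175 in the CD45 libraries, higher in 5 of 6 pairs. Gamma-delta T cells join clusters with different leading genes, and the part of their shares in this difference was not tested.

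In B cells 1 of the 7 passed, where 3.12% of 12037 genes did, and it was again Itgb1. It read 39.0, 29.5 and 28.2 CPM in the Cre-negative and 43.6, 29.99 and 30.5 in the Cre-positive CD31 libraries at vehicle, day 3 and day 7. The CD45 values were 27.5, 28.3 and 19.9, and 26.9, 24.8 and 26.5. The CD31 value was higher in 6 of 6 pairs, by 0.37 on the log2 scale (SE 0.08, adjusted p = 0.0080 by edgeR), and the counting interval excluded 0 in 3. The call ended without the vehicle Cre-negative pair (adjusted p = 0.093 by edgeR) or the vehicle Cre-positive pair (adjusted p = 0.057 by edgeR). It also ended in DESeq2 (adjusted p = 0.10) and in the edgeR fit without the block (adjusted p = 0.10).

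Endothelial RNA also differed between the fractions, and its part in the Itgb1 difference was not tested. Free RNA of the CD31 libraries held 236 to 289 CPM of Itgb1 against 88.8 to 194 in the CD45 libraries. Of the 7 blood endothelial markers, Pecam1 is also made by leukocytes and was set aside after the values were seen; the other 6 together read 31.0 to 66.1 CPM in B cells of the CD31 and 0.939 to 2.65 in those of the CD45 libraries, and 13.8 to 26.3 against 1.39 to 4.51 in T cells. With Pecam1 the sums were 253 to 372 against 211 to 306 in B cells and 123 to 187 against 110 to 178 in T cells. All 7 were above 0 in each CD31 library, and Kdr was at 0 in B cells of 5 of the 6 CD45 libraries. With free RNA subtracted, Itgb1 in B cells differed by -0.11 (adjusted p = 0.80 by edgeR). In T cells it differed by 0.24 (adjusted p = 0.11 by edgeR), beside 0.26 without the subtraction, and no member passed in T or B cells. The share subtracted was set by endothelial and stromal markers that included Pecam1, so the leukocytes' own Pecam1 raised it. It stood at 6.11% to 8.52% of B cell UMIs in CD31 and 4.40% to 9.70% in CD45 libraries. The subtraction may remove too much, so these fits cannot tell how much of the Itgb1 difference is free RNA. Fibroblast markers moved the other way from the endothelial ones, with 0.280 to 1.28 CPM in CD31 and 21.1 to 78.2 in CD45 B cells. Itga1, a partner subunit of Itgb1, was higher in CD31 B cells by 1.54 and Mki67 by 1.29, and Skap1 (-0.50) and Ccl5 (-0.89) were lower.

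In dendritic cells none of the 7 passed between fractions, where 0.0509% of 9829 genes did. Itgb2 read 2.40 CPM in the day 3 Cre-negative CD31 library, where migratory cells were 98.5% of the class, and 36.1 to 64.4 in the other 5 CD31 libraries, where they were 66.7% to 84.1%. NK cells of the CD31 libraries (24 to 70) were under the 30 cells set for a fit in 3 libraries and were not tested, and their Itgb1 read 408 to 808 CPM against 448 to 836 in the CD45 libraries.

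**Figure D5:**
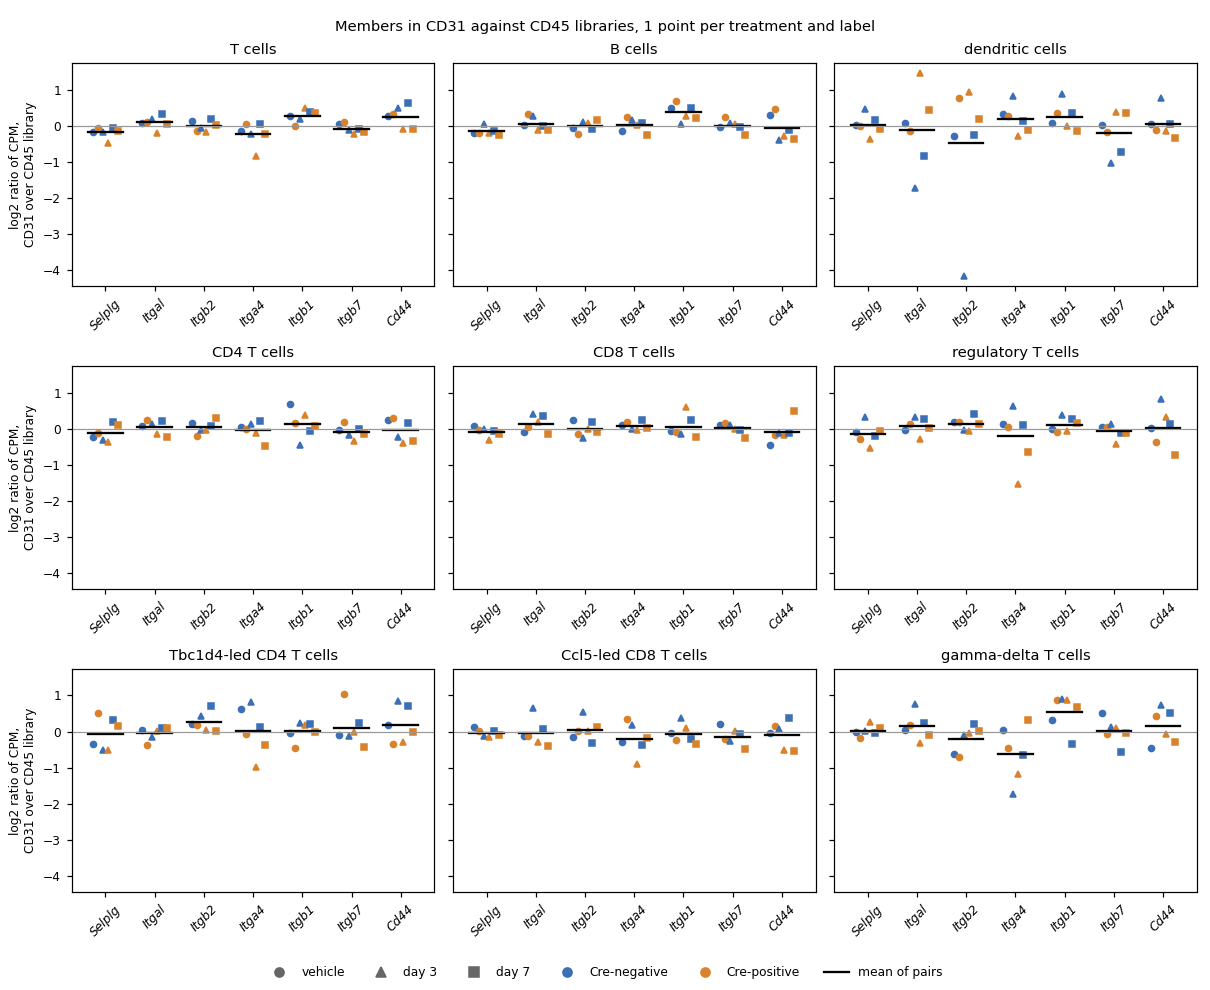
Log2 ratio of levels in the CD31 over the CD45 library for the 7 genes, 1 point per treatment and label, in 3 classes and 6 T cell subclasses; the line marks 0 and the black bar the mean of the points. Itgb1 lies above 0 in 6 of 6 pairs in B cells, 5 of 6 in T cells and 5 of 6 in gamma-delta T cells, where its fitted difference is 0.57, while it differs by -0.06 to 0.17 in the other 5 subclasses.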

How the data were processed

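The authors deposited UMI counts per gene and barcode for 12 droplet libraries; per the submitters' processing notes these came from Cell Ranger 7.0.1 and mm10, while the file headers name another Cell Ranger release. A barcode counted as a cell from 1000 UMIs and 500 genes, if its mitochondrial share was 10% or less. Scrublet scores, with an expected doublet rate of 6%, ranked the barcodes, and the top 0.8% per 1000 barcodes were removed, because the automatic threshold marked 0 to 220 cells per library. In the vehicle Cre-negative CD31 library the removed barcodes had a median of 3702 UMIs against 4329 in those kept. In the day 3 Cre-positive CD31 library these medians were 2157 and 3434, so barcodes removed from these libraries may not be doublets. Cells were clustered with scanpy 1.11.5 (Leiden resolution 1, 2000 variable genes, without the 7 genes and the pathway lists) and named from marker genes.

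Raw counts were summed per class and library. Classes with at least 30 cells in every library were tested with edgeR 4.0.16 (TMM, filterByExpr, quasi-likelihood F test, Benjamini-Hochberg adjustment over all genes, threshold 0.05). The SE given with an edgeR log2 change was computed from that change and its F statistic. It is the absolute change over the square root of F, as the test returns no standard error. Treatment and label entered an additive fit over 6 CD45 libraries; the fraction was tested over 12 libraries with the 6 combinations of treatment and label as a block. DESeq2 1.42.0, no filter on low counts, at least 2000 UMIs, doublets kept, free RNA subtracted (from barcodes of at most 50 UMIs) and each library left out were alternatives. The share of free RNA was set by endothelial and stromal markers, Pecam1 among them, and can be too high in leukocytes that make Pecam1. All 7 genes passed the filter on low counts in T, B, NK and dendritic cells. Fits were tested on simulated data. Counting intervals are exact at 95%.

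The 7 genes and all lists were chosen with earlier results of these data known. The genes named are the 7, at most the 6 largest changes among the list genes past the threshold per comparison, and the 3 genes most like each of the 7; other list genes in the text were named after their values were seen. Fits on T cells without the cycling cluster and on subclasses were added after seeing the data.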

Additional observations from a re-analysis of the deposited data

Results flagged for a closer look

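In 5 cases the Cre-negative and Cre-positive libraries moved opposite ways, with counting intervals that excluded 0 in both; with 1 library per group the difference between the labels was not tested. In T cells at day 7 against vehicle, Itgb1 changed by -0.73 on the log2 scale in Cre-negative and 0.65 in Cre-positive libraries. Tbc1d4-led cells, which had 386 CPM of Itgb1, went from 13.4% to 2.67% of T cells in the first pair and from 2.66% to 14.4% in the second; the part of this makeup was not tested. In the same pairs Selplg changed by 0.089 and -0.20, Itgal by -0.30 and 0.15, and Itgb2 by -0.15 and 0.12. In NK cells at day 3 against vehicle, Itgal changed by 0.61 in Cre-negative and -0.62 in Cre-positive libraries.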

How the results depend on the processing

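Library depth, cell numbers and 1 library per group limit these results: monocytes, and NK cells between fractions, were not tested, as they fell under the 30 cells per library set for a fit. Of the recomputed member counts past the threshold 29 moved; most of the others are a 0 that stayed 0, which says nothing on stability. No filter on low counts called 2 members in T cells at day 3 (14.9% of all genes passed there), 1 for the T cell label (2.95%), 1 in dendritic cells at day 3 (2.39%) and 4 for the T cell fraction (5.89%); DESeq2 called 1 for the T cell label and 0 for the B cell fraction. The T and B cell fraction counts fell to 0 with free RNA subtracted and without the block of treatment and label, and the T cell count was 0 without the cycling cluster and in each of the 6 subclasses fitted alone. With each library left out, the counts ranged from 0 to 1 (T cells at day 3), 0 to 2 (T cell label), 0 to 2 (dendritic cells at day 3), 0 to 1 (T cell fraction) and 0 to 1 (B cell fraction).

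Of the recomputed changes of named members, 124 kept sign and side of the threshold, 14 came to pass it, 18 no longer passed it and 18 turned sign; the cause was not tested. Itga4 in T cells at day 3 became 0.14 without the cycling cluster, 0.092 in CD4, 0.12 in CD8, 0.053 in regulatory, 0.26 in Ccl5-led and 0.39 in gamma-delta T cells, and stayed below 0 in cycling (-0.69) and Tbc1d4-led (-0.49) T cells. Itgb1 there became -0.24 without the cycling cluster, -0.15 in CD8, -0.35 in Tbc1d4-led, -0.43 in Ccl5-led, -0.030 in gamma-delta and -0.14 in cycling T cells, and ranged from -0.069 (without the vehicle Cre-positive library) to 0.81 with each library left out. Itgal in dendritic cells at day 3 ranged from -1.45 to 0.045 with each library left out, at 0.045 without the vehicle and 0.019 without the day 3 Cre-positive library. Between fractions, Itgb1 became -0.062 in Ccl5-led T cells, Selplg 0.024 in gamma-delta T cells and Itgb1 -0.11 in B cells with free RNA subtracted.

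Over all genes, DESeq2 called 301 for the T cell label where edgeR called 3, 133 against 5 for the dendritic label, 51 against 2 in dendritic cells at day 3, 37 against 0 in B cells at day 3 and 27 against 1 for the B cell label. At day 3 in T cells the count ran from 208 genes without the day 3 Cre-negative library to 3340 without the day 7 Cre-negative one, beside 2386.

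Thinned to 1000 UMIs, shares of T cells with a UMI were 20.2% for Selplg, 9.67% for Itgal, 7.97% for Itgb2, 10.6% for Itga4, 9.85% for Itgb1, 14.9% for Itgb7 and 5.75% for Cd44. In B cells they were 3.35%, 3.31%, 2.60%, 12.97%, 2.04%, 5.36% and 2.65% in the same order. In migratory dendritic cells they were 0% for Itgal, 0.806% for Itgb2 and 0.345% for Itgb7. All 105 levels recomputed with at least 2000 UMIs per cell, with doublets kept or at Leiden resolution 2 stayed within 1 SD. Levels with free RNA subtracted were not among them.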
